A study of Mus musculus with 4 samples.

Results

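The Egr, Klf and Nr4a early factors were followed in mouse aorta through every probe set that the array's annotation assigns to 1 of 10 gene symbols alone: Egr1, Egr2, Egr3, Klf2, Klf4, Klf6, Klf10, Nr4a1, Nr4a2 and Nr4a3. They were measured by 16 of the 22690 probe sets of an Affymetrix mouse array and make up 10 of its 12393 named genes. The aortas came from C57BL/6 females aged 12 to 14 weeks whose ovaries had been removed 1 week earlier, so no group had its own ovarian estradiol. Outside the body they were then exposed for 4 h to estradiol (E2) at 10 nM or to ethanol alone, the vehicle. Mice were wild type (WT) or disrupting peptide mice (DPM), which carry a transgene for residues 176 to 253 of estrogen receptor alpha behind the CMV promoter, a promoter not limited to 1 cell type of the vessel wall. That peptide keeps the receptor from binding striatin, the scaffold through which it signals to kinases outside the nucleus.

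Each sample pooled 4 aortas. By their titles the E2 groups held 2 replicates and the vehicle groups 3, but 1 log2 level per group was used here, so a spread between arrays could be taken only from the authors' deposited comparisons. Values after ± are standard errors (SE) recovered from those comparisons. The deposited p-values are called limma's here because the submitters' processing notes name limma, though without stating its role. Nothing says whether replicates were separate pools, so the p-values measure only the spread between these arrays, which may be technical. A gene was kept for testing when its log2 level reached 5 in 1 or more of the 4 groups, which left 5151 genes. An unadjusted p under 0.05 is called a pass below, and an adjusted p is corrected by the Benjamini-Hochberg method over those 5151 genes. Aorta is a mixture, and in such tissue fewer cells of a type and less RNA per cell cannot be told apart. Smooth muscle markers were present at median log2 levels of 11.7 to 12.0 in the 4 groups.

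All 3 families are early response genes: their transcription starts without new protein synthesis within minutes of a growth factor, calcium, cyclic AMP or flow signal. Egr factors carry zinc fingers that bind GC-rich sites, and ERK kinases drive them through serum response factor and its Elk partners. Klf factors bind CACCC and GC boxes. Klf2 and Klf4 are turned on in endothelium by laminar flow through the kinase ERK5 and MEF2 factors, and Klf10 is a TGF-beta early gene. The Nr4a proteins are orphan nuclear receptors that act without a known hormone and answer strongly to cyclic AMP.

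The promoters of Klf2, Klf4, Nr4a1 and Nr4a2 are shown as examples in which some of these elements lie. Egr2 and Nr4a3 also hold some of them and are not printed. The members were chosen with earlier results of these data known, and Egr1 had no window to show. RefSeq promoter windows on GRCm38.p6 were found for 7 of the 10 genes, and not for Egr1, Egr3 or Klf10. Each ran from 250 bases before the annotated start of transcription to 50 after it. The 250 bases before the start are printed 5′ to 3′ on the gene's own strand. Capitals mark the core TGACG of the cyclic AMP response element, the Egr site GCGGGGGCG and the MEF2 site, in either orientation. Klf2 lies at chr8:72318812-72319061 on the plus strand, Klf4 at chr4:55532476-55532725 on the minus strand, Nr4a1 at chr15:101266596-101266845 on the plus strand and Nr4a2 at chr2:57124004-57124253 on the minus strand.
Klf2: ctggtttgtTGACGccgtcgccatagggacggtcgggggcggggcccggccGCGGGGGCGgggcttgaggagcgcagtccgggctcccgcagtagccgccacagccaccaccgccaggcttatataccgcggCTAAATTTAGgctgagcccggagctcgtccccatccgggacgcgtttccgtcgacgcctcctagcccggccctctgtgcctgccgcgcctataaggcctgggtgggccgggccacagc
Klf4: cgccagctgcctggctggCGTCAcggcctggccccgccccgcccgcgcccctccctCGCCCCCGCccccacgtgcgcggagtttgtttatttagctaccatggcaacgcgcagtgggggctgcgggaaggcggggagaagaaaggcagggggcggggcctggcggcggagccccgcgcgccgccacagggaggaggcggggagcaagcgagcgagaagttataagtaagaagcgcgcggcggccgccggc
Nr4a1: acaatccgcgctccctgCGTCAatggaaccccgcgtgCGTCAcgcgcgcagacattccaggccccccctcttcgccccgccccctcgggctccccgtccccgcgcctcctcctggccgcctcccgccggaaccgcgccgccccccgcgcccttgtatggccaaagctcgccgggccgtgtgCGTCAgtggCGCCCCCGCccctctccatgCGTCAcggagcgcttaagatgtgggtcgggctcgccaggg
Nr4a2: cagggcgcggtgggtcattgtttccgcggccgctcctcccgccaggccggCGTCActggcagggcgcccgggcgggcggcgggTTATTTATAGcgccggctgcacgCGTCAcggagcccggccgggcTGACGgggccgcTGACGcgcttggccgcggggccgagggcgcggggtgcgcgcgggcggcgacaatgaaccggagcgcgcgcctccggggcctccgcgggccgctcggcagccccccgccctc

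The core TGACG was found on either strand in the windows of 6 of the 7 genes, all but Klf6. It lay in 8 of the 11 member windows, against 20.8% of the 32851 windows of the table. The Egr2 windows among them overlap and hold the same matches, so the 8 are not separate promoters. Nr4a1 had it at 4 places, 233, 213, 69 and 40 bases before the start. Nr4a2 and Nr4a3 also had it at 4 places each, and Klf2 and Klf4 at 1 each. The Egr site GCGGGGGCG lay 199 bases before the start of Klf2, 194 before that of Klf4 and 60 before that of Nr4a1, and 2.91% of all windows hold it. The MEF2 site lay 118 bases before the start of Klf2 and 167 before that of Nr4a2, against 1.86% of windows. The serum response element was found in 4 of the 5 overlapping or neighbouring windows of Egr2 (1.63% of all windows hold it). No other gene with a window had it, and Egr1, without a window, could not be searched. No member window held the full element TGACGTCA, the Egr site GCGTGGGCG, the AP-1 site TGANTCA or the estrogen response element, which 1.79%, 0.612%, 7.81% and 0.0700% of all windows hold. CACCC lay in the windows of Egr2, Klf2, Nr4a2 and Nr4a3, but 57.5% of all windows have it. The full cyclic AMP element contains its core on both strands. The 4 printed stretches hold 71.2% to 80% GC, and the shares of all windows were not matched for GC. All these matches are letters in a window and show no binding.

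**Figure D1:**
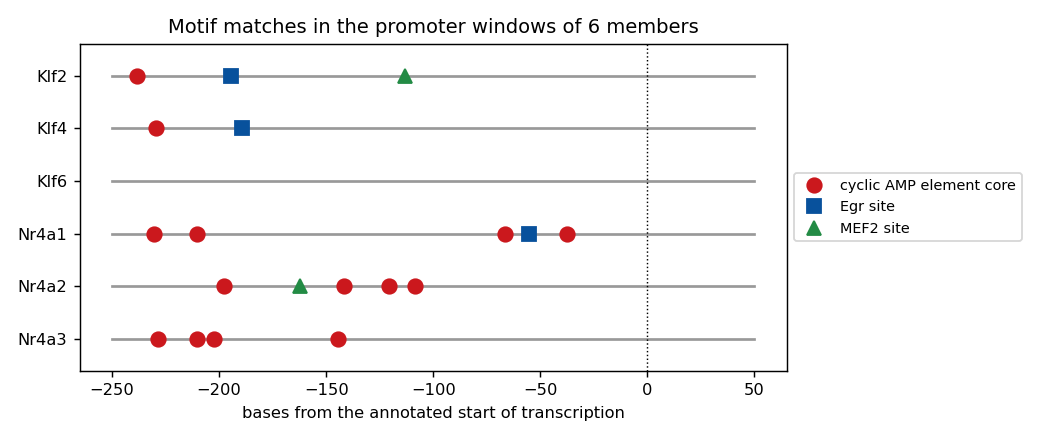
Matches to 3 motifs in the promoter windows of 6 members; the x axis gives bases from the annotated start of transcription (dotted line), and each symbol is 1 match on either strand. Nr4a1, Nr4a2 and Nr4a3 have 4 cyclic AMP element cores each, and Klf6 has none of the 3 motifs.

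Of the 10 genes, 8 passed the filter on level. Egr3, an Egr factor known from nerve and muscle spindle, and Nr4a3, the Nr4a receptor also called NOR-1, did not: their 3 probe sets lay between 2.29 and 2.30 in all 4 groups, against a lowest level on the array of 2.29. No response can be read from probe sets at that floor. The other probe set below the filter, 1 of 2 for Egr2, lay between 3.87 and 4.22. The remaining 12 probe sets cover Egr1, Egr2, Klf2, Klf4, Klf6, Klf10, Nr4a1 and Nr4a2, and where a gene had several, the one of highest mean level stands for it.

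In WT aorta, Klf2 and Egr1 rose with E2 by the unadjusted p. The other 6 kept members did not pass at the probe sets that stand for them, though second probe sets of Klf4 and Nr4a2 passed upwards and one of Klf6 downwards. Klf2, a flow-induced factor that keeps endothelium quiescent, stood at log2 6.49 in WT with vehicle, 7.17 in WT with E2, 6.89 in DPM with vehicle and 7.23 in DPM with E2. The WT vehicle group was the lowest and both E2 groups the highest. In WT its difference was 0.68 ± 0.19 (1.61-fold, unadjusted p = 0.00901, adjusted p = 0.464, from the limma p in the authors' deposited table). Klf2 was the one member of the 8 past 1.5-fold in WT, where 2.29% of genes were, and 0 of 8 were past it in DPM, beside 3.94% of genes.

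Egr1, a zinc finger factor induced by vessel injury and shear, stood at 11.46 in WT with vehicle, 11.74 in WT with E2, 11.58 in DPM with vehicle and 11.65 in DPM with E2. Both DPM levels lay between the 2 WT levels. Its WT difference was 0.28 ± 0.07 (1.21-fold, unadjusted p = 0.00498, adjusted p = 0.417, from the limma p in the authors' deposited table). The small SE of Egr1 let a fold of 1.12 pass in WT, where Klf2 needed 1.36 and the median gene 1.29. Egr2, the Egr factor best known from myelinating cells, stood at 5.78, 5.97, 5.69 and 5.99 in the same order of groups, with a WT difference of 0.19 ± 0.15.

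Nr4a1, the receptor Nur77, stood at 9.35 in WT with vehicle, 9.74 in WT with E2, 9.47 in DPM with vehicle and 9.75 in DPM with E2. Its 2 E2 levels were nearly equal and both above the vehicle levels, but the WT difference of 0.39 ± 0.19 did not pass (unadjusted p = 0.0815 in the authors' deposited table). Klf10, the TGF-beta early gene, stood at 7.996, 8.20, 8.06 and 8.26 in the same order, a WT difference of 0.20 ± 0.13.

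Klf4, which in smooth muscle represses contractile genes and in endothelium acts beside Klf2, was measured by 2 probe sets that differ. At 1417394_at it stood at 10.12, 10.32, 10.18 and 10.38 in the same order, a WT difference of 0.21 ± 0.19. At 1417395_at it stood at 7.98, 8.41, 8.38 and 8.33, and the WT difference of 0.43 ± 0.12 passed (1.35-fold, unadjusted p = 0.0118 in the authors' deposited table). There the WT vehicle group stood alone below the other 3. Nr4a2, the receptor Nurr1, also had a pair: 1450750_a_at stood at 7.38, 7.40, 7.48 and 7.51 with a WT difference of 0.02 ± 0.18, while 1450749_a_at stood at 5.72, 5.88, 5.79 and 5.81 with one of 0.17 ± 0.07 (unadjusted p = 0.0408 in the authors' deposited table).

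Klf6, an injury-induced Klf factor of endothelium and muscle, had 3 probe sets above the filter, and they disagreed in sign in WT. Its highest, 1433508_at, stood at 10.91 in WT with vehicle, 10.99 in WT with E2, 10.88 in DPM with vehicle and 10.98 in DPM with E2, a WT difference of 0.08 ± 0.11. At 1418280_at the levels were 10.00, 9.90, 9.88 and 9.90, a WT difference of -0.10 ± 0.09. At 1427742_a_at they were 10.20, 9.97, 10.04 and 10.06, and this WT difference of -0.23 ± 0.06 passed downwards (unadjusted p = 0.00817 in the authors' deposited table). Which Klf6 transcripts each probe set detects was not analysed here, so no direction is given for Klf6 in WT.

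**Figure D2:**
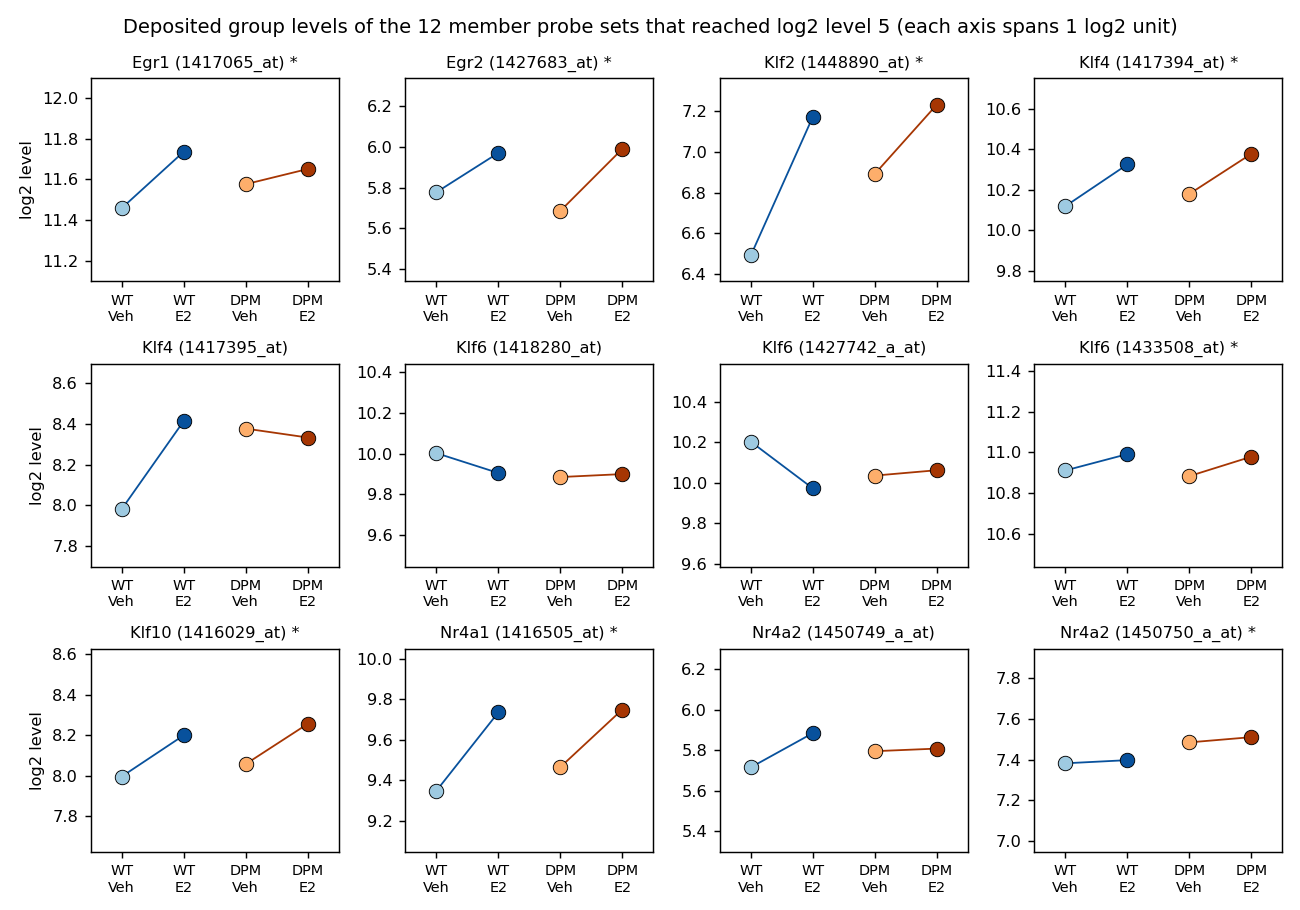
Deposited log2 level (y axis, 1 log2 unit high in each panel) in the 4 groups for the 12 member probe sets that reached a level of 5; lines join vehicle and E2 within a genotype, an asterisk marks the probe set that stands for its gene, and no error is drawn because 1 level per group was used. Klf2 runs from 6.49 in WT with vehicle to 7.17 in WT with E2.

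Counted over genes, 2 of 8 members passed upwards in WT, where 4.15% of the 5151 genes did. The members had been chosen with earlier results of these data known. Member counts here and below are therefore no independent evidence when set beside the shares of all genes. By the probe sets that stand for them, all 8 stood higher with E2, beside 51.8% of genes, with a median of 0.20 against 0.01. With the lowest kept probe set of each gene 7 of 8 did, all but Klf6, and with quantile normalized levels 7 of 8, all but Nr4a2. Of the 12 probe sets, 10 stood higher and 2 of Klf6 lower; 4 passed upwards and 1 downwards, where 4.09% and 2.42% of the 7696 kept probe sets did. At an adjusted p under 0.05 there were 0 of 8 members and 0% of genes.

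In DPM aorta 0 of the 8 members passed in either direction by limma's unadjusted p, where 5.20% of genes did and 0.0194% passed after adjustment. The DPM response has a wider error: its SE was 1.33 times that of the WT response, a ratio shared by the genes, so Klf2 needed a fold of 1.51 to pass in DPM. The replicate numbers in the titles are the same for both genotypes and would give equal errors under 1 common spread, so those numbers and these errors conflict, and the cause was not tested. Klf2 differed by 0.34 ± 0.25 (95% interval -0.25 to 0.93), Egr2 by 0.31 ± 0.20, Nr4a1 by 0.28 ± 0.25, and Klf10 by 0.20 ± 0.17. Klf4 differed by 0.20 ± 0.26 at 1417394_at and by -0.04 ± 0.17 at 1417395_at. Egr1 differed by 0.07 ± 0.09, with an interval of -0.14 to 0.29. The Klf6 and Nr4a2 differences were 0.10 and 0.03. By the probe sets that stand for them all 8 were above 0, as were 65.9% of genes, whose median was 0.08, and 7 of 8 with the lowest kept probe sets, all but Klf4. Centred on that median, 6 of 8 members stayed above 0 and Egr1 and Nr4a2 did not.

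**Figure D3:**
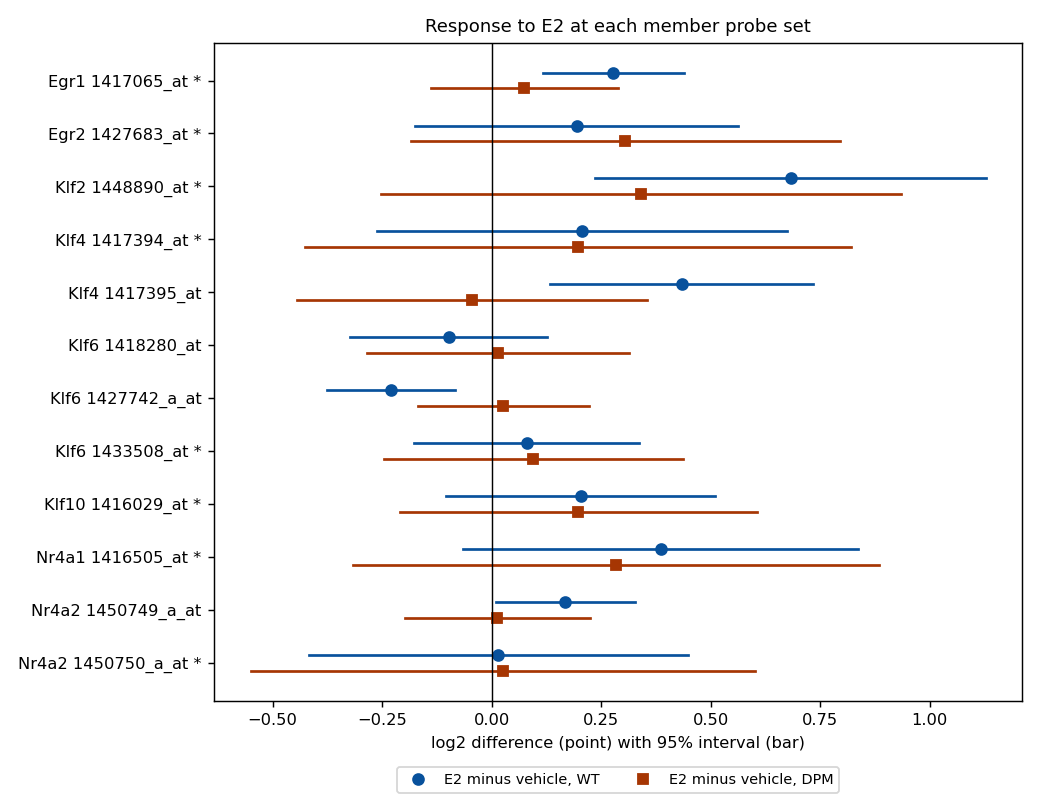
E2 minus vehicle (log2, x axis) at each of the 12 member probe sets in WT (circles) and DPM (squares), with 95% intervals as bars; an asterisk marks the probe set that stands for its gene. The WT intervals of Egr1, Klf2, Klf4 at 1417395_at and Nr4a2 at 1450749_a_at lie above 0 and that of Klf6 at 1427742_a_at below it, and every DPM interval spans 0.

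The difference between both responses asks whether the peptide changes what E2 does. Of the 8 members, 0 passed in this test by limma's unadjusted p, where 4.19% of genes did (0.0194% after adjustment). The DPM response of Klf2 was lower by a difference of -0.34 ± 0.31, with a 95% interval of -1.08 to 0.40, which holds both no difference and a complete loss of the WT response. For Egr1 the difference was -0.20 ± 0.11 (interval -0.47 to 0.06, unadjusted p = 0.113 in the authors' deposited table). Centred on the median of all genes, it became -0.27 and passed (unadjusted p = 0.0462 by the same limma errors). At the lower Klf4 probe set, 1417395_at, the difference was -0.48 ± 0.21 (interval -0.98 to 0.02), whereas 1417394_at had one of -0.01 ± 0.32. Nr4a1 (-0.10 ± 0.31), Klf10 (-0.01 ± 0.21) and Egr2 (0.11 ± 0.25) had intervals that span 0. So had Nr4a2, with 0.01 ± 0.30 at 1450750_a_at and -0.16 ± 0.11 at 1450749_a_at. Klf6 differed by 0.01 ± 0.18 at 1433508_at and by 0.11 ± 0.16 at 1418280_at, and at 1427742_a_at by 0.26 ± 0.10, with an interval of 0.01 to 0.50 that lies off 0 (unadjusted p = 0.0424 in the authors' deposited table). Of the 12 probe sets this was the 1 that passed, where 3.83% of the 7696 did. Of the 8 genes, 3 had a higher response in DPM, beside 61.9% of all genes, with a median of -0.01 against 0.07. Centred on that median of all genes, 1 of 8 had a higher response. The members that changed side, Klf6 (0.01 ± 0.18) and Nr4a2 (0.01 ± 0.30), had lain near 0 and well within their errors. So had Klf4 (-0.01 ± 0.32) and Klf10 (-0.01 ± 0.21), so this count says little about their responses. So Klf2 and Egr1 passed in WT and not in DPM, and neither was shown to respond differently.

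Because both responses rest on different groups, their mean could be tested too, with an SE equal to that of their difference over 2. Averaged over genotypes, Klf2 rose with E2 by 0.51 ± 0.15 (1.43-fold, interval 0.14 to 0.88, unadjusted p = 0.0144, adjusted p = 0.511) and Egr1 by 0.18 ± 0.06 (1.13-fold, unadjusted p = 0.0172, adjusted p = 0.524), in this test on the limma errors. These were 2 of 8 members, where 6.00% of genes passed upwards and 0.0388% after adjustment. Nr4a1 stood at 0.34 ± 0.16 (unadjusted p = 0.0721), Egr2 at 0.25 ± 0.13 and Klf10 at 0.20 ± 0.11. Klf4 lay at 0.20 at one probe set and 0.19 at the other. Klf6 lay between -0.10 and 0.09 at its 3 probe sets, and Nr4a2 at 0.02 and 0.09.

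**Figure D4:**
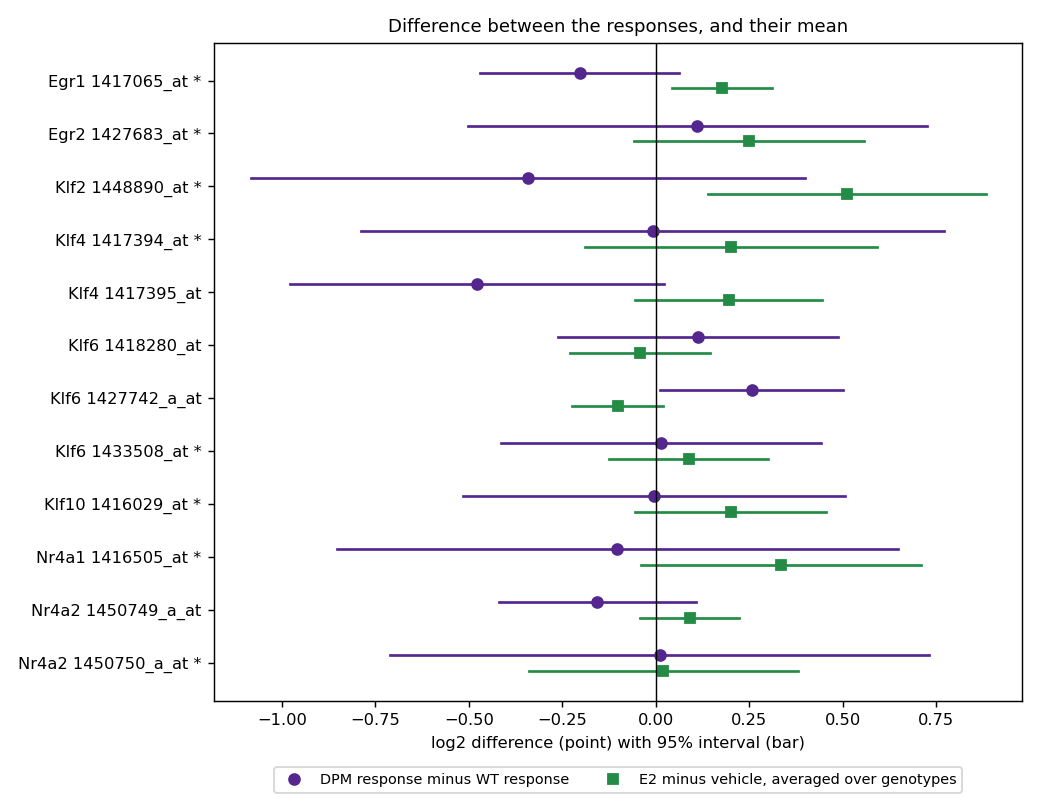
DPM response minus WT response (circles) and the E2 difference averaged over both genotypes (squares), in log2 with 95% intervals, at each of the 12 member probe sets; an asterisk marks the probe set that stands for its gene. The averaged intervals of Klf2 and Egr1 lie above 0, and Klf6 at 1427742_a_at has the one difference between responses whose interval lies off 0.

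No member passed between genotypes. Averaged over treatments, DPM minus WT passed for 0 of 8 members by the limma errors, where 5.79% of genes passed and 0% after adjustment. Klf2 had the widest such difference, 0.23 ± 0.15. Within a treatment no p was used here, and the SE of the difference between responses served as an upper bound. With vehicle, Klf2 stood higher in DPM by 0.40 with an SE of at most 0.31, Klf4 at 1417395_at by 0.40 with one of at most 0.21, and Egr1 by 0.12 with one of at most 0.11. With E2, these differences were 0.06, -0.08 and -0.09. None of the 8 members was 1.5-fold apart between genotypes in either treatment, against 3.24% of genes with vehicle and 2.17% with E2. The WT vehicle group held the lowest level for 6 of 8 members and for 25.4% of genes, and DPM with E2 the highest for 6 of 8 and for 38.1% of genes. These orders use the same 4 levels as the comparisons above.

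Markers of other cells were read in the same comparisons, where 51.8% of all genes stood higher with E2 in WT and 65.9% in DPM. In either direction 6.79% of genes passed in WT and 5.20% in DPM. Counts of 3 of 4 or 3 of 5 higher in DPM are near the share of all genes. Of 9 kept endothelial markers, 8 stood higher in WT with E2 (median 0.28) and 4 in DPM (median -0.02). None of the 10 on the array was at the floor. Summed levels, here and below in log2, take every listed marker on the array, kept or not. For endothelium this sum was 10.04 in WT with vehicle, 10.37 in WT with E2, 10.20 in DPM with vehicle and 10.07 in DPM with E2. Icam2 (0.68 ± 0.13), Tek (0.63 ± 0.17), which encodes an angiopoietin receptor, and Vwf (0.50 ± 0.14) passed in WT, and Emcn (0.58 ± 0.22) in DPM. The DPM response was lower than the WT response for 7 of the 9 (median -0.43), while 61.9% of all genes had a higher one. In that difference 1 of the 9 passed, Icam2 at -0.69 ± 0.22, where 4.19% of genes did. Klf2 is a gene of endothelium, and the part of endothelial content in its differences was not tested. All 8 heart muscle markers were above level 5 in DPM with vehicle and 0 or 1 of them in the other groups, with summed levels of 9.90 against 6.58 to 6.89. At the floor were 2 of them in WT with vehicle, 3 in WT with E2 and 1 in DPM with E2. The 5′ probe set of the Gapdh quality control differed by -1.21 ± 1.11 in DPM and by 0.54 ± 0.84 in WT. Of 6 smooth muscle markers, 4 stood higher in WT and 0 in DPM (median -0.17), where Smtn passed at -0.38 ± 0.15, with summed levels from 15.18 to 15.31. Of 4 kept leukocyte markers 3 stood higher in DPM, where Cd53 (1.03 ± 0.40) and Csf1r (0.42 ± 0.16) passed. The summed level of the 6 leukocyte markers on the array was 8.92 in DPM with E2 against 8.47 to 8.55 in the other groups. Of 5 fibroblast markers 3 stood higher in DPM and Clec3b passed downwards (-2.05 ± 0.84), with summed levels from 12.27 to 12.54. The 3 kept mesothelial markers stood higher in DPM (median 1.00), with 0 passing and summed levels of 8.65 in DPM with E2 against 7.84 to 7.98, while Wt1 lay at the floor in 3 groups. Of 4 kept fat cell markers 3 stood higher in DPM and 0 passed, with summed levels from 13.50 to 13.74 and Lep at the floor throughout. The part of all these in the members' values was not tested.

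Related genes were counted in the same way, where 6.79% of all genes passed in either direction in WT, 5.20% in DPM and 7.71% on average. These lists, and those of downstream, AP-1 and feedback genes below, were also chosen with earlier results of these data known. Their counts are no independent evidence either. Of 5 other Klf genes kept out of 13 listed, 0 passed in WT, DPM or on average (medians 0.01, -0.07 and -0.04), a count too small to be set against those shares. Of the 4 kept partners and corepressors of Egr and Nr4a proteins, such as Nab and RXR genes, 0 passed as well, with medians of 0.01 in WT and -0.18 in DPM. Among 13 kept kinases and factors that act upstream of early genes, 3 passed upwards and 1 downwards in WT. The ETS factor gene Elk3 stood at 0.95 ± 0.16 in WT and 0.75 ± 0.21 in DPM, Mef2a at 0.84 ± 0.12 and 0.58 ± 0.16, and Map2k1, which encodes the kinase that activates ERK, at 0.39 ± 0.12 and 0.48 ± 0.17. All 3 passed in both genotypes by the unadjusted p. Mrtfa, a partner of serum response factor, passed downwards in WT (-0.60 ± 0.10), and its response was higher in DPM by 0.45 ± 0.16.

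Genes reported to lie downstream stood on both sides, where 51.8% of all genes stood higher in WT and 65.9% in DPM. Of 8 kept Egr1 targets, 4 stood higher and 4 lower in WT. F3, the gene for tissue factor, passed upwards (0.57 ± 0.21) and the chemokine gene Ccl2 downwards (-0.49 ± 0.14). Of 9 kept Klf2 and Klf4 targets of endothelium, 6 stood higher in WT and 4 in DPM. The list includes repressed genes such as Sele, so a count of genes higher does not measure Klf2 action. In WT 2 of these targets passed. Tek, also one of the endothelial markers above, did so upwards. Sele, the gene for E-selectin, which Klf2 represses, did so downwards at -0.97 ± 0.26. The AP-1 list, the other large class of early factors, had 7 of 8 genes higher in WT, 5 of them passing, with a median of 0.46 beside the members' 0.20. In DPM its median was -0.03 beside the members' 0.20, and 4 of 8 stood higher. The median difference between responses was -0.38 for AP-1 and -0.01 for the members, and no test was made between these lists. The feedback list holds Dusp, Spry and Spred inhibitors and also Ier genes, which are early response genes. Of its 9 kept genes, 5 stood higher in WT and 0 passed.

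**Figure D5:**
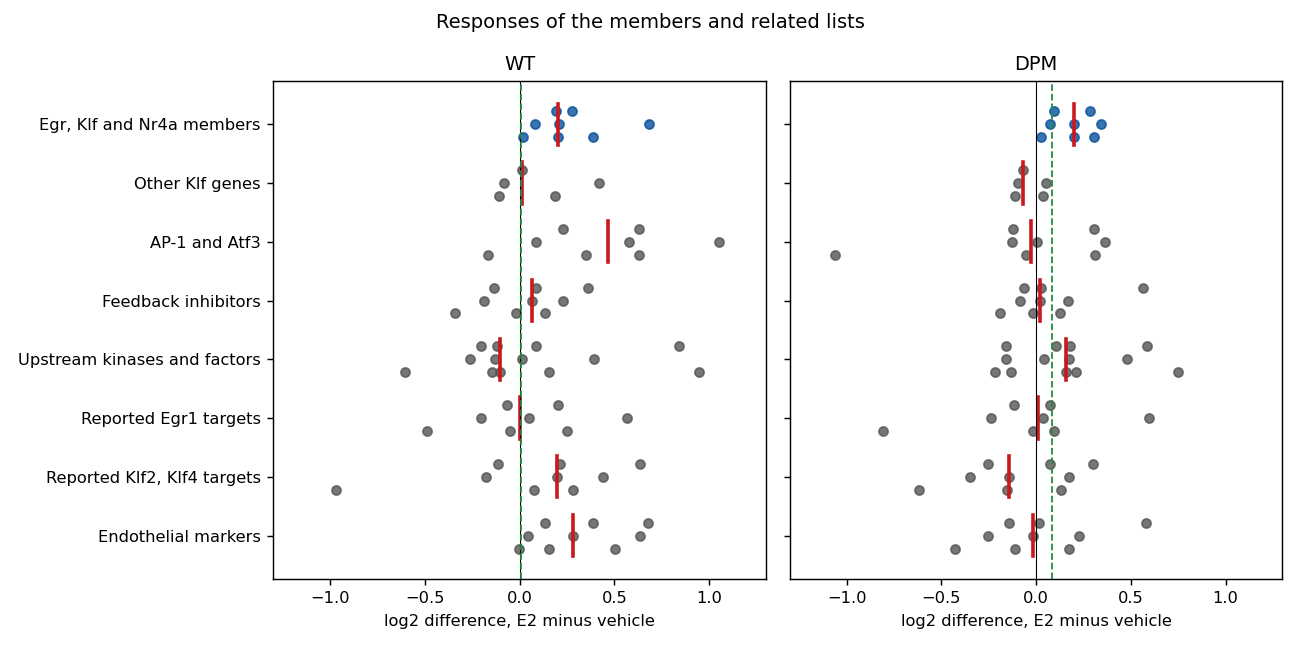
E2 minus vehicle (log2, x axis) in WT and DPM for the kept genes of the members (top row) and of 7 related lists; each point is a gene, the red bar is the list's median and the dashed line the median of all 5151 genes. The members lie between 0.02 and 0.68 in WT and between 0.03 and 0.34 in DPM, while the AP-1 list spans -1.06 to 0.36 in DPM.

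By the distance between centred group levels, which covers 4 values a gene, the nearest of the 5151 genes to Klf2 were Atf3 (distance 0.08), Prps1l3 (0.09) and Itih5 (0.11). Atf3 encodes a stress-induced partner of AP-1 and stood at 8.99, 9.62, 9.29 and 9.65 in WT with vehicle, WT with E2, DPM with vehicle and DPM with E2. The nearest to Egr1 were Maged2, Snrnp40 and Rbm15 (0.02 to 0.03), and to Nr4a1 they were Atp1b3, Dnpep and Polr2f (0.03 to 0.04). With so few levels such distances describe these groups only.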

How the data were processed

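The authors' deposited log2 levels, 1 per probe set and group, and their deposited log2 differences and unadjusted p-values were used as given; GCRMA and limma are named in the submitters' processing notes, with no version or role. Both files held identical levels. Symbols came from the platform's annotation, updated by Entrez identifier through RefSeq's GRCm38.p6 gene table. Each symbol was represented by its probe set of highest mean level, and kept if any group reached a level of 5 (5151 of 12393 genes). The errors came from the deposited differences and p-values at the total degrees of freedom, 6.44, where the errors of the 2 responses keep 1 ratio over 6876 probe sets (1.33, and 1.66 for their difference). From these the averaged contrasts were tested with scipy 1.17.1. That step was tried on data simulated with a common spread per gene and independent groups, as the method assumes. It thus checked the arithmetic and not whether those assumptions hold here. The number of arrays limits precision. All 10 members were named with every probe set; of related lists, up to 6 genes that passed; and the 3 nearest genes to the member of each family with the widest WT difference. Members and lists were chosen with earlier results of these data known. Alternatives were the lowest kept probe set, no filter, a level of 7, centring, quantile normalization and 6 degrees of freedom.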

Additional observations from a re-analysis of the deposited data

Results flagged for a closer look

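Klf6 at 1427742_a_at was the one of the 16 member probe sets whose responses to E2 differed between genotypes by the test of the difference itself, at 0.26 ± 0.10 (95% interval 0.01 to 0.50, unadjusted p = 0.0424 by limma in the authors' deposited table). Its level fell with E2 in WT by 0.23 and moved by 0.03 in DPM. The other 2 Klf6 probe sets had differences of 0.11 and 0.01. Of the 12 member probe sets above the filter on level, 1 passed this test, beside 3.83% of the 7696 kept probe sets. That count is too small to be set against the share, and the p is not adjusted for the 16.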

How the results depend on the processing

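Among the 7 counts of members, 5 were the same under every alternative run. With each gene's lowest kept probe set, the members that passed in WT rose from 2 to 4, with Klf4 (0.43) and Nr4a2 (0.17) added, since other probe sets were read. Centring on the median of all genes took the members whose responses differ from 0 to 1, which was Egr1 at -0.27, because the median of that comparison is 0.07. Klf2 and Egr1 passed in WT and on average under each of the 6 alternatives. For the WT result only centring and quantile normalization could change their p. The other alternatives read the same probe set and the same deposited p, so they were no check of it. Of 313 single values under alternatives, 309 kept their side of the threshold or moved by less than their error. Many of them repeat the main value, because the alternative read the same probe set and levels. Of the 313, 19 changed sign, none of them a value that passed. Klf6 and Nr4a2 account for 13 of these turns. Over all genes, 350 passed in WT, 490 without a filter on level and 201 at a level of 7; 216 responses differed, against 348 and 85; and 268 passed in DPM, against 408 and 127. Upward calls were 218 of 268 in DPM, 100 of 219 when centred and 130 of 210 when quantile normalized; for the difference 163 of 216, 88 of 184 and 119 of 191; on average 309 of 397, 185 of 347 and 199 of 349; and in WT 214 of 350, 197 of 348 and 180 of 363. Leaving out single replicates and any paired fit were not run, since 1 level per group was used. Levels near the floor limit Egr3 and Nr4a3.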
